A study of Mus musculus with 17 samples.

Results

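The CCAAT/enhancer binding proteins (C/EBPs) were read across 6 populations of mouse hematopoietic stem and progenitor cells. Members were the non-control probes whose gene name on the array was Cebpa, Cebpb, Cebpd, Cebpe or Cebpg. Of these 5 genes, 4 were represented, by 8 of the 41174 probes and among 28090 gene names: Cebpa and Cebpb with 2 probes each, Cebpd with 1 and Cebpg with 3. No non-control probe carried the name Cebpe, which was not analysed here.

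RNA came from bone marrow of untreated female C57Bl/6 mice aged 6 to 8 weeks, and each replicate was a pool of 10 to 20 animals. Every population was sorted from lineage-depleted, c-kit+ cells. The HSC subsets were Long-Term HSCs (LT-HSC; Sca1+ CD34- FLT3-, 2 arrays), Short-Term HSCs (ST-HSC; Sca1+ CD34+ FLT3-, 3 arrays) and Multipotent Progenitors (MPP; Sca1+ CD34+ FLT3+, 3 arrays). The myeloid progenitors were Common Myeloid Progenitors (CMP; Sca1- with intermediate CD34 and FcR gamma, 3 arrays), Granulocyte-Monocyte Progenitors (GMP; Sca1- CD34+ FcR gamma+, 3 arrays) and Megakaryocyte-Erythroid Progenitors (MEP; Sca1- CD34- FcR gamma-, 3 arrays). HSC subsets and myeloid progenitors were collected in separate sorts. Each population had 1 array without a replicate number, called unnumbered here, and the second LT-HSC array joins replicates 2 and 3 by its label. The sorts enrich for a population and do not isolate a clone, and in bulk RNA fewer cells of a type and less RNA per cell cannot be told apart.

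C/EBPs are transcription factors with a basic region that contacts DNA and a leucine zipper through which members pair with each other or with other basic leucine zipper (bZIP) proteins. C/EBP alpha is required for the step from CMP to GMP and drives early granulocyte genes, C/EBP beta serves cytokine-driven (emergency) granulopoiesis, and C/EBP delta is an early responder to cytokines. C/EBP epsilon acts later in granulocyte maturation, and C/EBP gamma lacks an activation domain of its own and works through its partners.

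Levels are log2 intensities after quantile normalization, and differences were tested in limma with Benjamini-Hochberg adjustment over all 41174 probes at an adjusted p threshold of 0.05. A probe's level is set only against its own level in other populations. Scanning took place in 3 runs: replicates 1 and 2 of the myeloid populations in run 1, the unnumbered arrays of all populations but LT-HSC in run 2, and both LT-HSC arrays with replicates 2 and 3 of ST-HSC and MPP in run 3. On the unnumbered LT-HSC array 41.4% of spots were well above background, against 48.2% to 70.2% on the other 16. As a check of the labels, 5 of 5 GMP markers were higher and 6 of 6 MEP markers lower in GMP than in MEP. A further GMP marker, the Fc receptor gene Fcgr3, is of the kind the sort selects on and is left out of the list counts. The mean level of 6 HSC markers ran from 9.27 to 10.18 in LT-HSC and ST-HSC, from 8.51 to 9.02 in MPP and from 5.19 to 7.29 in the myeloid populations. With Fcgr3 the 6 GMP markers had mean levels of 11.41 to 13.18 in LT-HSC, 13.49 to 14.34 in ST-HSC and 10.47 to 12.28 in MPP. They were at 12.53 to 13.55 in CMP, 15.55 to 16.10 in GMP and 9.39 to 12.33 in MEP. On these markers ST-HSC thus overlapped CMP.

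The probes nearest the 5′ end of Cebpa, Cebpb and Cebpg, called 5′ probes here, each hold leucine codons (CTN, TTA or TTG) 7 codons apart in an open reading frame, the spacing of a leucine zipper. They are shown because that spacing is the feature the family shares, and capitals mark those codons. Probe A_52_P168567 of Cebpa, which lies downstream, also holds such a frame, so the spacing alone does not place a probe in the zipper, and no annotation of coding positions was used here. The sequences are those of the array design, 5′ to 3′, and the positions are those of the scanner files in mouse build mm9.
Cebpa probe A_51_P214087, chr7:35905361-35905420, plus strand: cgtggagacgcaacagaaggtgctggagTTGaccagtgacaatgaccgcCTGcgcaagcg
Cebpb probe A_52_P605846, chr2:167515309-167515368, plus strand: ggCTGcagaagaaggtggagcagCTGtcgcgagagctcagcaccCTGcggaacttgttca
Cebpg probe A_52_P438082, chr7:35835477-35835536, minus strand: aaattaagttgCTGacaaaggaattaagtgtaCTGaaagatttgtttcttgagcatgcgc
The longest run of bases shared by 2 probes of different members was 8 of 60 bases over 23 pairs of probes. The other 5 probes lie further downstream or are the only probe of their gene: A_52_P168567 of Cebpa (chr7:35906517-35906576), A_52_P63553 of Cebpb (chr2:167515847-167515905), A_51_P444447 of Cebpd (chr16:15888459-15888518), and A_52_P121675 (chr7:35832751-35832810) and A_51_P521216 (chr7:35831917-35831976) of Cebpg.

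RefSeq promoters (build GRCm38.p6) were given for Cebpa, Cebpb and Cebpg. Those of Cebpa and Cebpb, the genes whose levels differed most between GMP and MEP among the 3, are printed as the 250 bases before the annotated start. Capitals mark matches on either strand to a TATA box (TATAAA), a GC box (GGGCGG) or the core of a cAMP response element (TGACG), and neighbouring GC boxes overlap.
Cebpa, chr7:35119043-35119292, plus strand: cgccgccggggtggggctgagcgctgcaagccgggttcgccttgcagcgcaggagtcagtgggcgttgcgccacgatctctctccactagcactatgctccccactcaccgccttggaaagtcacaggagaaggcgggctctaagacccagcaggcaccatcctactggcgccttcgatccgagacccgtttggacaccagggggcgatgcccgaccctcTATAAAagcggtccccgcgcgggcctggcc
Cebpb, chr2:167688665-167688914, plus strand: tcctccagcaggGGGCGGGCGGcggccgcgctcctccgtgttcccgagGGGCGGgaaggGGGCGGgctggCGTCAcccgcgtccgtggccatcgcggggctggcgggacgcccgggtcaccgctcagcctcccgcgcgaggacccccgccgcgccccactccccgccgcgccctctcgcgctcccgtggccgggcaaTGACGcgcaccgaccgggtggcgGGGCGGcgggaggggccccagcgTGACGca
The windows searched also took in the 50 bases after the start. The Cebpa promoter held 1 TATAAA, 30 bases before the start, and no GC box or TGACG. The Cebpb promoter held 5 GC boxes, 3 TGACG matches and a TATAAA that began 21 bases after the annotated start. The Cebpg promoter held 1 GC box and 2 CCAAT boxes (CCAAT), a motif with no match in the other promoters. A C/EBP site (TTGCNNAA) matched none of the 3. Of 32851 mouse promoters of 300 bases, 13.6% held TATAAA, 35.7% GGGCGG, 20.8% TGACG, 37.4% CCAAT and 10.8% TTGCNNAA. GC content before the start was 66.4% for Cebpa, 81.6% for Cebpb and 70.8% for Cebpg, against a median of 52.4% over all promoters. These matches describe letters only, and no binding was measured.

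Across the 6 populations Cebpa, Cebpb and Cebpd varied and Cebpg did not pass the test. In the F-test over populations 5 of the 8 member probes passed, namely all probes of Cebpa, Cebpb and Cebpd, where 40.6% of all probes passed. Cebpg probe A_52_P438082 had a p of 0.0486 in that F-test and an adjusted p of 0.0997. Leaving out 1 array gave 5 to 6 passing member probes. The 5 probes of Cebpa, Cebpb and Cebpd were also higher in GMP than in MEP, in a comparison that called 17.4% of all probes. Between GMP and CMP 3 of 8 probes passed (both of Cebpb and that of Cebpd), where 4.77% of all probes did. That count was 0 without the unnumbered GMP array, CMP replicate 1 or CMP replicate 2, 1 without GMP replicate 2, and 5 without the unnumbered MEP array. In these fits, in that order, 1390, 1120, 1285, 1332 and 2151 of all probes passed, against 1962 with all arrays. Between MEP and CMP 3 passed (both of Cebpa and that of Cebpd, all lower in MEP), where 16.7% of all probes did. With the replicate number as a block, which pairs these arrays, both Cebpb probes passed as well and the count was 5 (23.3% of all probes). Between CMP and MPP both Cebpb probes passed, where 12.1% of all probes did, and 1 of them without MPP replicate 2, the unnumbered MPP array or CMP replicate 1 or 2. Of all probes 1827, 7572, 2026 and 1773 passed in these fits, in that order, against 4998 with all arrays. No member probe passed between LT-HSC and ST-HSC (3.34% of all probes) or between ST-HSC and MPP (2.02%) in limma. At an unadjusted p under 0.05 the counts were 2 (Cebpa A_52_P168567 and Cebpg A_51_P521216) and 1 (Cebpd). With the replicate block, which pairs ST-HSC with MPP, Cebpd passed (3.05% of all probes).

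**Figure D1:**
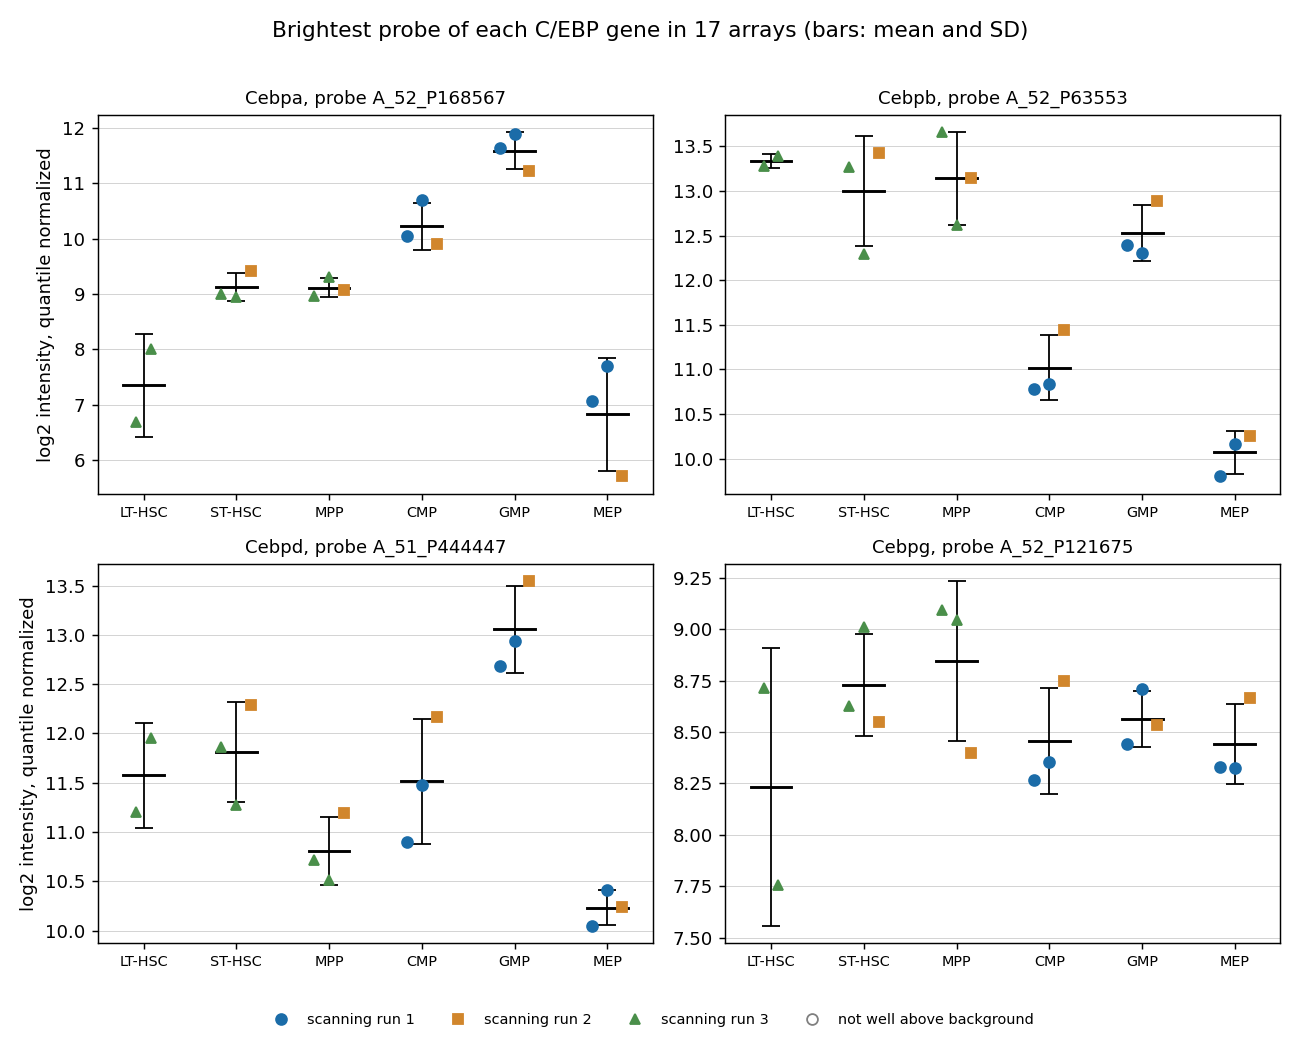
Log2 intensity (y axis) of the brightest probe of each gene in the 6 populations (x axis). Each point is 1 array, its shape gives the scanning run, and bars give mean and SD. Cebpa and Cebpd were highest on the 3 GMP arrays, Cebpb was lowest on the 3 MEP arrays, and Cebpg stayed between 7.76 and 9.09.

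Cebpa, the factor required for granulocyte-monocyte commitment, was higher in GMP than in each HSC subset and, on its brighter probe, lower in MEP than in every population but LT-HSC. On probe A_52_P168567 the LT-HSC arrays read 6.69 and 8.01, the ST-HSC arrays 9.01, 8.95 and 9.41, and the MPP arrays 8.96, 9.30 and 9.07. The CMP arrays read 10.05, 10.70 and 9.90, the GMP arrays 11.64, 11.89 and 11.23, and the MEP arrays 7.07, 7.70 and 5.71. The 3 GMP arrays were thus the highest of all 17 and did not overlap the CMP arrays, which in turn lay above every HSC subset array. The order of means was GMP 11.59 ± 0.34 (SD, n = 3), CMP 10.22 ± 0.42 (n = 3), ST-HSC 9.12 ± 0.25 (n = 3), MPP 9.11 ± 0.17 (n = 3), LT-HSC 7.35 ± 0.94 (n = 2) and MEP 6.83 ± 1.02 (n = 3). In that order ST-HSC overlapped MPP and LT-HSC overlapped MEP, while the other neighbours did not overlap.

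Cebpa was 27.1-fold higher in GMP than in MEP on this probe (log2 difference 4.76 ± 0.45, SE, adjusted p = 5.02e-06 in limma). The differences of LT-HSC, ST-HSC and MPP from GMP were -4.24 ± 0.50 (adjusted p = 6.52e-05), -2.46 ± 0.45 (adjusted p = 0.00234) and -2.48 ± 0.45 (adjusted p = 0.0015). No scanning run held LT-HSC together with GMP, so run and population cannot be told apart in the first, and ST-HSC and MPP shared only run 2 with GMP. Cebpa was 10.5-fold lower in MEP than in CMP (log2 difference -3.39 ± 0.45, adjusted p = 0.00012). With normexp background correction these were 3.76 for GMP minus MEP and -2.48 for MEP minus CMP, and both passed. The steps on the way up were smaller and did not pass: 1.11 ± 0.45 log2 from MPP to CMP (adjusted p = 0.124) and 1.37 ± 0.45 from CMP to GMP (adjusted p = 0.134), although the arrays did not overlap in either comparison. Both probes passed for GMP against CMP with the scanning run as a block (adjusted p = 0.0438 for A_52_P168567 and 0.0341 for A_51_P214087) and without the unnumbered MEP array (0.0356 and 0.0379), whose value is the lowest of all 17, and over all alternatives the adjusted p ran up to 0.367 and 0.404. Without that array both also passed for CMP against MPP (0.0484 and 0.0277), where the second probe otherwise missed the threshold (1.24 ± 0.43, adjusted p = 0.0752) and passed without dim probes (0.0455), with normexp (0.0278), in the authors' table (0.00974) and with only the populations compared (0.0447). With the run as a block these steps were 0.39 (adjusted p = 0.871) and 0.51 (0.748).

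The 5′ probe of Cebpa, A_51_P214087, gave the same order of populations. Its GMP arrays read 8.91, 9.52 and 8.63 and its MEP arrays 5.65, 5.98 and 4.26, the last not well above background. The CMP arrays read 7.66, 8.10 and 7.35, the ST-HSC arrays 6.48, 6.68 and 6.61, the MPP arrays 6.45, 6.22 and 6.71, and the LT-HSC arrays 4.94 and 6.25. As on the other probe, GMP and CMP stood apart from each other and from all other arrays. The difference between GMP and MEP was 3.72 ± 0.43 log2 (13.2-fold, adjusted p = 2.76e-05), and that between MEP and CMP -2.41 ± 0.43 (adjusted p = 0.00128). With normexp they were 2.01 and -1.10, and both passed. ST-HSC also exceeded MEP on this probe (1.29 ± 0.43, adjusted p = 0.0355), and MPP minus MEP was 1.16 ± 0.43 (adjusted p = 0.0523), against 2.29 and 2.28 on the brighter probe (adjusted p = 0.00165 and 0.0015). Over the 17 arrays the probes had a Pearson correlation of 0.97, which describes arrays that share populations.

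In LT-HSC the brighter probe of Cebpa differed from its level in ST-HSC by -1.77 ± 0.50 log2 (3.41-fold), without overlap, and missed the threshold at an adjusted p of 0.0738. It passed with the scanning run as a block (adjusted p = 0.0339) and without the unnumbered MEP array (0.0265), and without the dim unnumbered LT-HSC array the difference was -2.43 ± 0.58 (0.0542). It was -1.11 (0.29) without the pooled LT-HSC array, and the 5′ probe gave -0.998 ± 0.48 (adjusted p = 0.316). Mean levels of 6 MEP markers were 11.45 to 12.34 in LT-HSC, 10.28 to 10.76 in ST-HSC and 7.70 to 8.63 in MPP, and those of 5 B cell markers 7.49 to 7.74, 5.85 to 6.22 and 5.53 to 5.97. Those of 6 GMP markers with Fcgr3 were 11.41 to 13.18, 13.49 to 14.34 and 10.47 to 12.28 in the same order. Monocyte and macrophage markers were at 7.86 to 8.10, 8.50 to 9.54 and 7.52 to 8.10. T cell markers were at 6.10 to 6.13, 4.66 to 4.98 and 5.06 to 5.64. The part of these markers in the difference between LT-HSC and ST-HSC was not tested. LT-HSC and MEP, at the bottom of the order, differed by 0.52 ± 0.50 (adjusted p = 0.488). ST-HSC and MPP differed by 0.01 ± 0.45 (adjusted p = 1).

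**Figure D2:**
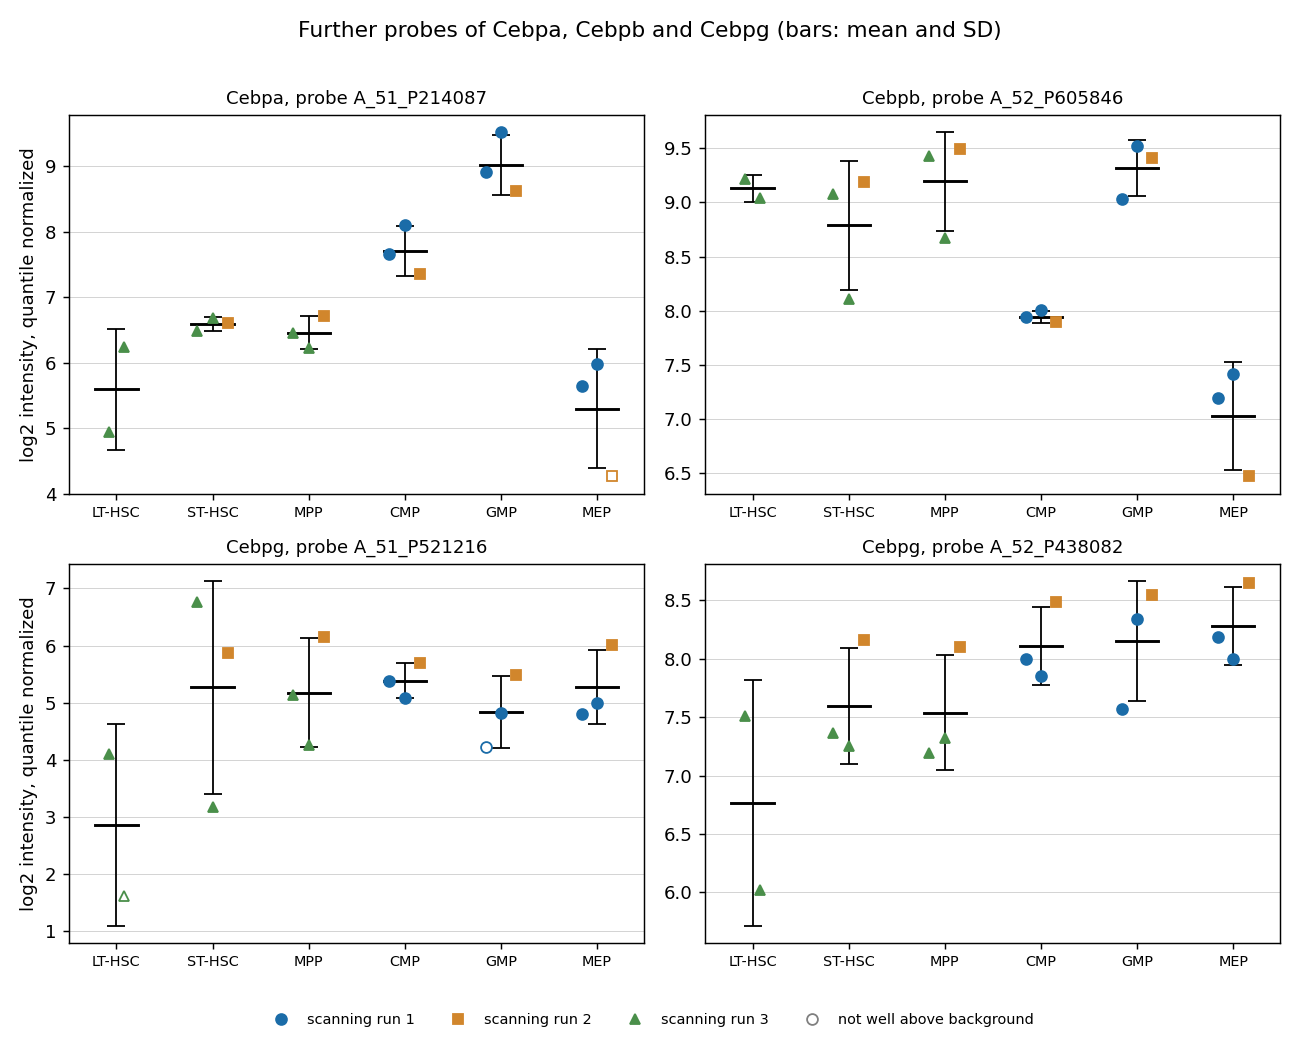
Log2 intensity (y axis) of the second probes of Cebpa and Cebpb and of the further Cebpg probes in the 6 populations (x axis), drawn as in the plot of the brightest probes. Open symbols are not well above background. The Cebpa and Cebpb probes repeat the low level in MEP, and on Cebpg probe A_52_P438082 the scanning run 2 array is the highest of its population in 5 of 5 populations.

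Cebpb, the C/EBP of cytokine-driven granulopoiesis, followed another course: high in the HSC subsets, lower in CMP, higher again in GMP than in CMP, with its lowest mean in MEP. On probe A_52_P63553 the LT-HSC arrays read 13.28 and 13.39, the ST-HSC arrays 13.27, 12.29 and 13.43, and the MPP arrays 13.66, 12.62 and 13.15. The CMP arrays read 10.78, 10.84 and 11.44, the GMP arrays 12.40, 12.30 and 12.89, and the MEP arrays 9.80, 10.16 and 10.26. No CMP or MEP array reached the lowest array of the HSC subsets or GMP. The means ran LT-HSC 13.33 ± 0.07 (SD, n = 2), MPP 13.14 ± 0.52 (n = 3), ST-HSC 13.00 ± 0.62 (n = 3), GMP 12.53 ± 0.31 (n = 3), CMP 11.02 ± 0.37 (n = 3) and MEP 10.07 ± 0.24 (n = 3). Neighbours among the first 4 of these overlapped, although LT-HSC and GMP did not, and GMP, CMP and MEP were separate from one another.

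Cebpb fell 4.35-fold from MPP to CMP (log2 difference -2.12 ± 0.33, SE, adjusted p = 0.00146 in limma) and was 2.85-fold higher in GMP than in CMP (1.51 ± 0.33, adjusted p = 0.0162). It was 5.49-fold higher in GMP than in MEP (2.46 ± 0.33, adjusted p = 9.91e-05). Between MEP and CMP it was -0.95 ± 0.33 and did not pass (adjusted p = 0.0675), but passed with the run as a block (adjusted p = 0.034), with the replicate block (0.00935) and without dim probes (0.042). The rise from CMP to GMP missed the threshold when the unnumbered GMP array (adjusted p = 0.0778), CMP replicate 1 (0.0818) or CMP replicate 2 (0.0714) was left out, with the difference between 1.33 and 1.42 log2 in these fits. Markers of other cells moved with both steps. In CMP against MPP 6 of 6 MEP markers were higher (median 4.04 log2), 5 of 6 HSC markers lower and 1 higher (median -2.49), and 2 of 6 monocyte and macrophage markers higher. In GMP against CMP 6 of 6 MEP markers (median -2.998) and 3 of 6 HSC markers (median -1.09) were lower and 2 of 6 monocyte and macrophage markers higher (median 0.90). Their part in the differences of Cebpa, Cebpb and Cebpd between these populations was not tested.

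The 5′ probe of Cebpb, A_52_P605846, read 7.94, 8.01 and 7.90 in CMP and 9.03, 9.52 and 9.41 in GMP. It read 7.20, 7.42 and 6.47 in MEP, 9.42, 8.67 and 9.49 in MPP, 9.08, 8.11 and 9.19 in ST-HSC, and 9.22 and 9.04 in LT-HSC. Here too the CMP and MEP arrays lay below all others, and CMP and MEP did not overlap. Between MEP and CMP the difference was -0.92 ± 0.32 (adjusted p = 0.069, and 0.0163 with the replicate block). The other differences were -1.25 ± 0.32 log2 from MPP to CMP (adjusted p = 0.0235), 1.37 ± 0.32 from CMP to GMP (adjusted p = 0.0238) and 2.29 ± 0.32 between GMP and MEP (adjusted p = 0.000142, and 1.61 with normexp, which passed). The step from MPP to CMP, at -1.28 to -1.10 log2, missed the threshold without MPP replicate 2 (adjusted p = 0.106), the unnumbered MPP array (0.0508), CMP replicate 1 (0.0774) or CMP replicate 2 (0.0759). The step from CMP to GMP, at 1.27 to 1.40 log2, missed it when any 1 of 5 of the 6 arrays of those populations was left out (0.0696 to 0.0993). The probes had a Pearson correlation of 0.90 over the 17 arrays. They differed at the top of the order, where GMP came first on the 5′ probe and after all HSC subsets on the other. MPP minus GMP was -0.13 ± 0.32 on the 5′ probe and 0.61 ± 0.33 on the other, and passed on neither (adjusted p = 0.83 and 0.203).

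Between the HSC subsets and the 3 myeloid populations, 5 of 8 member probes passed, where 41.3% of all probes did. Cebpb was higher in the HSC subsets on both probes (1.95 ± 0.20 log2, adjusted p = 6.82e-06, and 0.94 ± 0.19, adjusted p = 0.00144). Cebpa was lower on both (-1.02 ± 0.27, adjusted p = 0.00846, and -1.13 ± 0.26, adjusted p = 0.00321), as was Cebpg probe A_52_P438082 (-0.88 ± 0.25, adjusted p = 0.0112). Runs 1 and 3 each held 1 side of this comparison, so only run 2 gives it within a run. There the Cebpb differences were 1.76 and 1.41, that of the Cebpg probe -0.43, and those of Cebpa 0.30 and -0.08. With the run as a block both Cebpb probes passed (adjusted p = 0.00507 and 0.0148) and the Cebpa probes (0.762 and 0.619) and the Cebpg probe (0.329) did not. Over all 41174 probes 5970 passed with that block, against 17006 without it. The brighter Cebpa probe also missed the threshold without the LT-HSC arrays (-0.43 ± 0.27, adjusted p = 0.222) and with slide as a random block (0.0837), as did the 5′ probe under 75th percentile scaling (0.0651). Without the unnumbered LT-HSC array the 5 probes passed, the Cebpg probe at -0.63 (adjusted p = 0.0444). Mean levels of 7 mature neutrophil markers were 12.34 to 13.15 in LT-HSC, 11.71 to 13.11 in ST-HSC and 10.04 to 12.02 in MPP, against 9.70 to 10.85 in CMP, 10.10 to 11.82 in GMP and 10.77 to 11.68 in MEP. Those of 5 B cell markers were 5.53 to 7.74 over the HSC subsets and 4.57 to 5.56 over the myeloid populations, and those of 5 T cell markers 4.66 to 6.13 and 3.20 to 4.71. The part of these markers in the differences was not tested.

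Cebpd, the rapid cytokine responder, was highest in GMP and lowest in MEP. Its only probe, A_51_P444447, read 11.20 and 11.95 in LT-HSC, 11.86, 11.28 and 12.28 in ST-HSC, and 10.71, 10.52 and 11.19 in MPP. It read 10.90, 11.48 and 12.17 in CMP, 12.68, 12.94 and 13.54 in GMP, and 10.05, 10.42 and 10.24 in MEP. Every GMP array lay above every other array and every MEP array below every other array. The means ran GMP 13.06 ± 0.44 (SD, n = 3), ST-HSC 11.81 ± 0.51 (n = 3), LT-HSC 11.58 ± 0.53 (n = 2), CMP 11.52 ± 0.64 (n = 3), MPP 10.81 ± 0.35 (n = 3) and MEP 10.23 ± 0.18 (n = 3), and the populations between ST-HSC and MPP overlapped with their neighbours.

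Cebpd was 7.07-fold higher in GMP than in MEP (log2 difference 2.82 ± 0.36, SE, adjusted p = 6.7e-05 in limma) and 2.91-fold higher than in CMP (1.54 ± 0.36, adjusted p = 0.0247). It differed from GMP by -1.48 log2 in LT-HSC (adjusted p = 0.0149), -1.25 in ST-HSC (0.0265) and -2.25 in MPP (0.000598), and in MEP it differed from CMP by -1.28 ± 0.36 (adjusted p = 0.025). MEP also lay below LT-HSC (difference of LT-HSC from MEP 1.34, adjusted p = 0.0213) and ST-HSC (1.57, 0.00455), while MPP and MEP differed by 0.57 (0.246). No scanning run held LT-HSC together with GMP or MEP, so run and population cannot be told apart in those differences. ST-HSC and MPP shared only run 2 with GMP and MEP. ST-HSC and MPP arrays did not overlap, and their difference did not pass (adjusted p = 0.304) but did with the replicate block (0.031). Mean levels of 6 GMP markers with Fcgr3 were 13.49 to 14.34 in ST-HSC and 10.47 to 12.28 in MPP. Those of 6 monocyte and macrophage markers were 8.50 to 9.54 and 7.52 to 8.10, and those of 6 MEP markers 10.28 to 10.76 and 7.70 to 8.63. The part of these markers in the difference was not tested. The difference between GMP and CMP was lost without the unnumbered GMP array (adjusted p = 0.113), CMP replicate 1 (0.127), GMP replicate 2 (0.0646) or CMP replicate 2 (0.0827), and with only the populations compared (0.122). That between MEP and CMP, at -1.30 to -0.95 log2, missed the threshold without the unnumbered CMP array (0.109), the unnumbered MEP array (0.0616), MEP replicate 1 (0.0858) or CMP replicate 2 (0.0657). It also missed the threshold under 75th percentile scaling (-1.09, 0.0907), with only the populations compared (0.0596) and within scanning run 1 (-0.96, adjusted p = 0.0731). In run 2, with 1 array of each population, it was -1.93.

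Cebpg, the partner-dependent member, did not pass the F-test on any of its 3 probes. On its brightest probe, A_52_P121675, the LT-HSC arrays read 8.71 and 7.76, the ST-HSC arrays 8.62, 9.01 and 8.55, and the MPP arrays 9.09, 9.05 and 8.40. The CMP arrays read 8.27, 8.36 and 8.75, the GMP arrays 8.44, 8.71 and 8.53, and the MEP arrays 8.33, 8.33 and 8.67. All neighbours in the order of means overlapped. GMP and MEP differed by 0.12 log2, with a 95% interval from -0.44 to 0.68 that leaves out differences of the size seen for Cebpa, Cebpb and Cebpd.

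The 5′ probe of Cebpg, A_52_P438082, ran from 6.02 on the unnumbered LT-HSC array to 8.65 on the unnumbered MEP array. Its run 2 array was the highest of its population in 5 of 5 populations. On Cebpb probe A_52_P63553, the Cebpd probe and Cebpg probe A_51_P521216 the run 2 array was the highest in 4 of 5. On the 5′ probe of Cebpg, GMP and MEP differed by -0.13, with a 95% interval from -1.01 to 0.75. LT-HSC passed as lower than CMP (-1.34, adjusted p = 0.0491 in limma), GMP (-1.38, 0.038) and MEP (-1.51, 0.0227). The LT-HSC arrays read 6.02 and 7.51 against 7.57 to 8.65 on the arrays of those populations, and no scanning run held LT-HSC together with any of them, so run and population cannot be told apart there. The third probe, A_51_P521216, was dim and ran from 1.61 to 6.75, and on 2 arrays, GMP replicate 1 and the unnumbered LT-HSC array, it was not well above background. The 3 Cebpg probes agreed poorly, with Pearson correlations over 17 arrays of 0.18 to 0.72, against 0.97 for Cebpa and 0.90 for Cebpb. LT-HSC minus ST-HSC was -2.41 on A_51_P521216 and -0.83 on A_52_P438082 and passed on neither (adjusted p = 0.202 and 0.396), and without the unnumbered LT-HSC array it was -1.16 and -0.08. Both probes passed with the replicate block, but no value is drawn from that fit: the difference there rests on the unnumbered LT-HSC array, which is not well above background on A_51_P521216, and the numbers do not pair LT-HSC with ST-HSC.

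**Figure D3:**
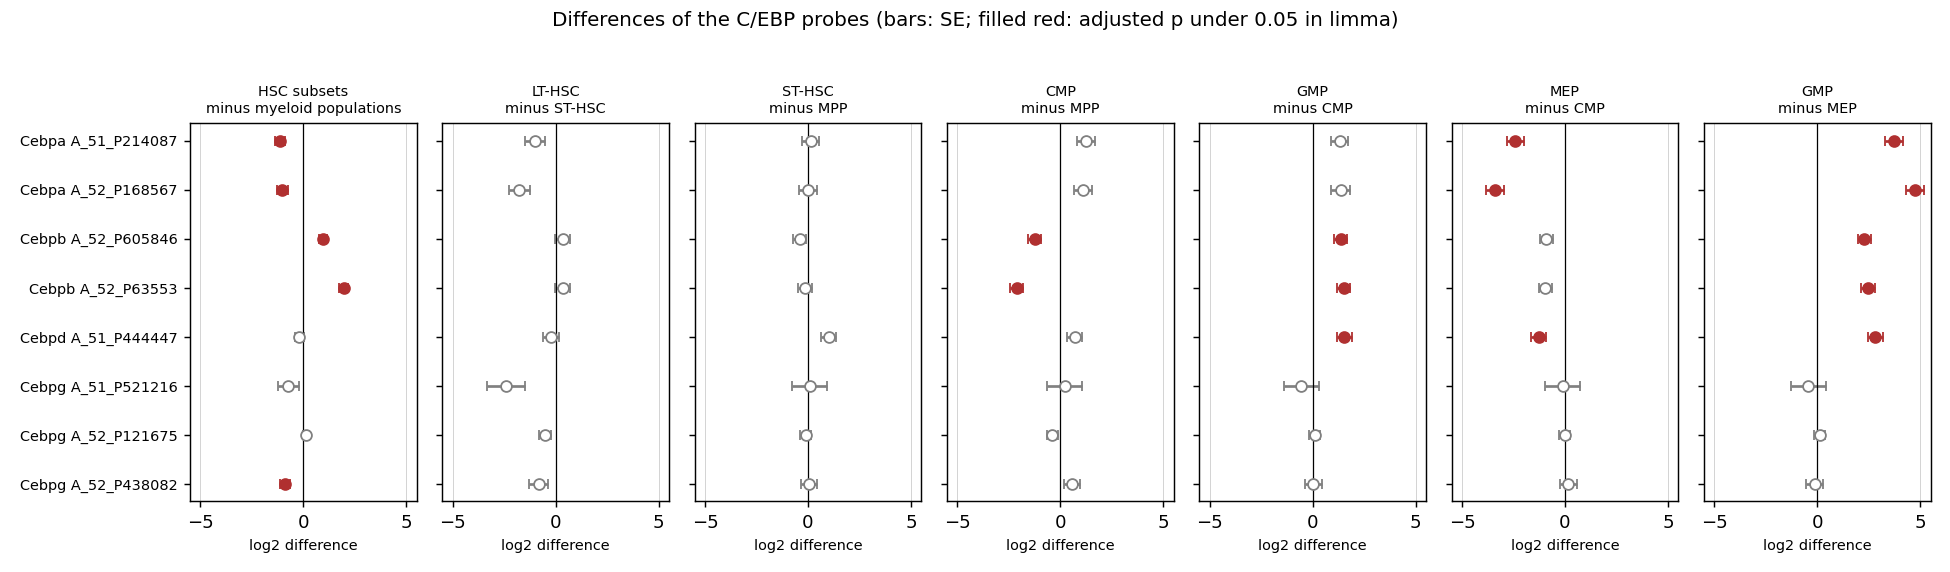
Log2 differences (x axes) of the 8 member probes (y axis) in 7 comparisons; points are estimates, bars SE, and filled red points have an adjusted p under 0.05 in limma. The 5 probes of Cebpa, Cebpb and Cebpd lie between 2.29 and 4.76 for GMP minus MEP, and the 3 Cebpg probes between -0.43 and 0.12.

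The genes around the C/EBPs were read through 6 lists, 1 probe per gene name. Over all 28090 names 10.3% were higher and 8.26% lower in GMP than in MEP with a median difference of -0.07 log2, 2.06% were higher and 3.43% lower in GMP than in CMP (median 0.04), and 5.75% were higher and 6.51% lower in CMP than in MPP (median -0.01). The early granulocyte and monocyte genes, among them C/EBP alpha targets such as Csf3r and Elane, were higher in GMP than in MEP in 10 of 10 cases without Fcgr3, with a median of 4.25 log2. The largest differences were those of Csf1r, the M-CSF receptor (5.20 ± 0.49, SE, adjusted p = 4.98e-06), Ctsg, the granule protease cathepsin G (5.13 ± 0.69, adjusted p = 0.000114), and Prtn3, proteinase 3 (4.82 ± 0.69, adjusted p = 0.000196). Of these 10, 3 were higher in GMP than in CMP (median 1.35) and 4 higher in CMP than in MPP (median 1.86), with none lower in either. For Fcgr3, which the sort bears on, GMP minus MEP was 5.06 ± 0.74 (adjusted p = 0.00023), and that value is no finding.

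The secondary and tertiary granule genes mark later granulocytes and lean on C/EBP epsilon. Of 7, 1 was higher in GMP than in MEP and none lower, near the share over all names, and the list's median was -0.75. It was Mmp8, neutrophil collagenase (1.90 ± 0.54, adjusted p = 0.0271), which was well above background on only 1 of 3 MEP arrays. Ngp (-1.48 ± 0.86, adjusted p = 0.334), Ltf, lactoferrin (-1.44 ± 0.62, adjusted p = 0.157), and Camp, cathelicidin (-1.19 ± 0.80, adjusted p = 0.418), did not pass. In GMP against CMP and in CMP against MPP, 0 of 7 passed in limma, also 0 at an unadjusted p under 0.05, with medians of 0.28 and -0.29.

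Among the bZIP partners, 3 of 9 were higher and 1 lower in GMP than in MEP (median 0.22). Batf, an AP-1 family factor, was higher (1.57 ± 0.35, adjusted p = 0.00552) and Ddit3, the stress-induced C/EBP relative also called CHOP, was lower (-1.28 ± 0.40, adjusted p = 0.0435). Fos differed by 1.32 ± 0.50 (adjusted p = 0.0966) and Atf3 by -0.94 ± 0.56 (adjusted p = 0.348). Against CMP, 2 of 9 were lower in GMP (median -0.89), and 1 of 9 was lower in CMP than in MPP (median -0.16).

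Genes for C/EBP protein turnover split. Trib2, a pseudokinase that brings C/EBP alpha to the COP1 ubiquitin ligase, was lower in GMP than in MEP (-5.69 ± 0.47, adjusted p = 1.53e-06) and was well above background on only 1 of 3 GMP arrays. Trib1, which acts the same way, was higher (3.28 ± 0.45, adjusted p = 0.000119), and Trib3, a relative, was lower (-1.90 ± 0.52, adjusted p = 0.0205) and well above background on 2 of 3 GMP arrays. The ligase gene Cop1 differed by -0.50 ± 0.25 (adjusted p = 0.243), and in all 1 of 6 was higher and 2 lower (median -0.43). In GMP against CMP 1 of 6 was lower and none higher (median -0.05), and in CMP against MPP 1 was higher and 1 lower (median 0.00).

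The branch point transcription factors divided into 5 higher and 4 lower of 11 in GMP against MEP (median 0.65). The erythroid factors Klf1 (-6.25 ± 0.54, adjusted p = 2.34e-06) and Gata1 (-4.03 ± 0.40, adjusted p = 7.23e-06) were lower, and Irf8, a monocyte factor (5.15 ± 0.43, adjusted p = 1.93e-06), and Gfi1, a granulocyte factor (3.94 ± 0.42, adjusted p = 1.32e-05), were higher. Against CMP, 1 was higher and 5 lower in GMP (median -0.58), and 5 were higher and 1 lower in CMP than in MPP (median 1.09). In the cytokine pathway that induces Cebpb and Cebpd, 2 of 9 were higher in GMP than in MEP and none lower (median 0.30): Il6st, the shared receptor chain gp130 (4.22 ± 0.25, adjusted p = 1.2e-07), and Stat3 (1.98 ± 0.21, adjusted p = 1.45e-05). Nfkb1 (0.66 ± 0.28, adjusted p = 0.148) and Creb1 (0.58 ± 0.22, adjusted p = 0.106) did not pass. Of these 9, 2 were lower in GMP than in CMP (median -0.32), and 1 was higher and 3 lower in CMP than in MPP (median -0.45).

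**Figure D4:**
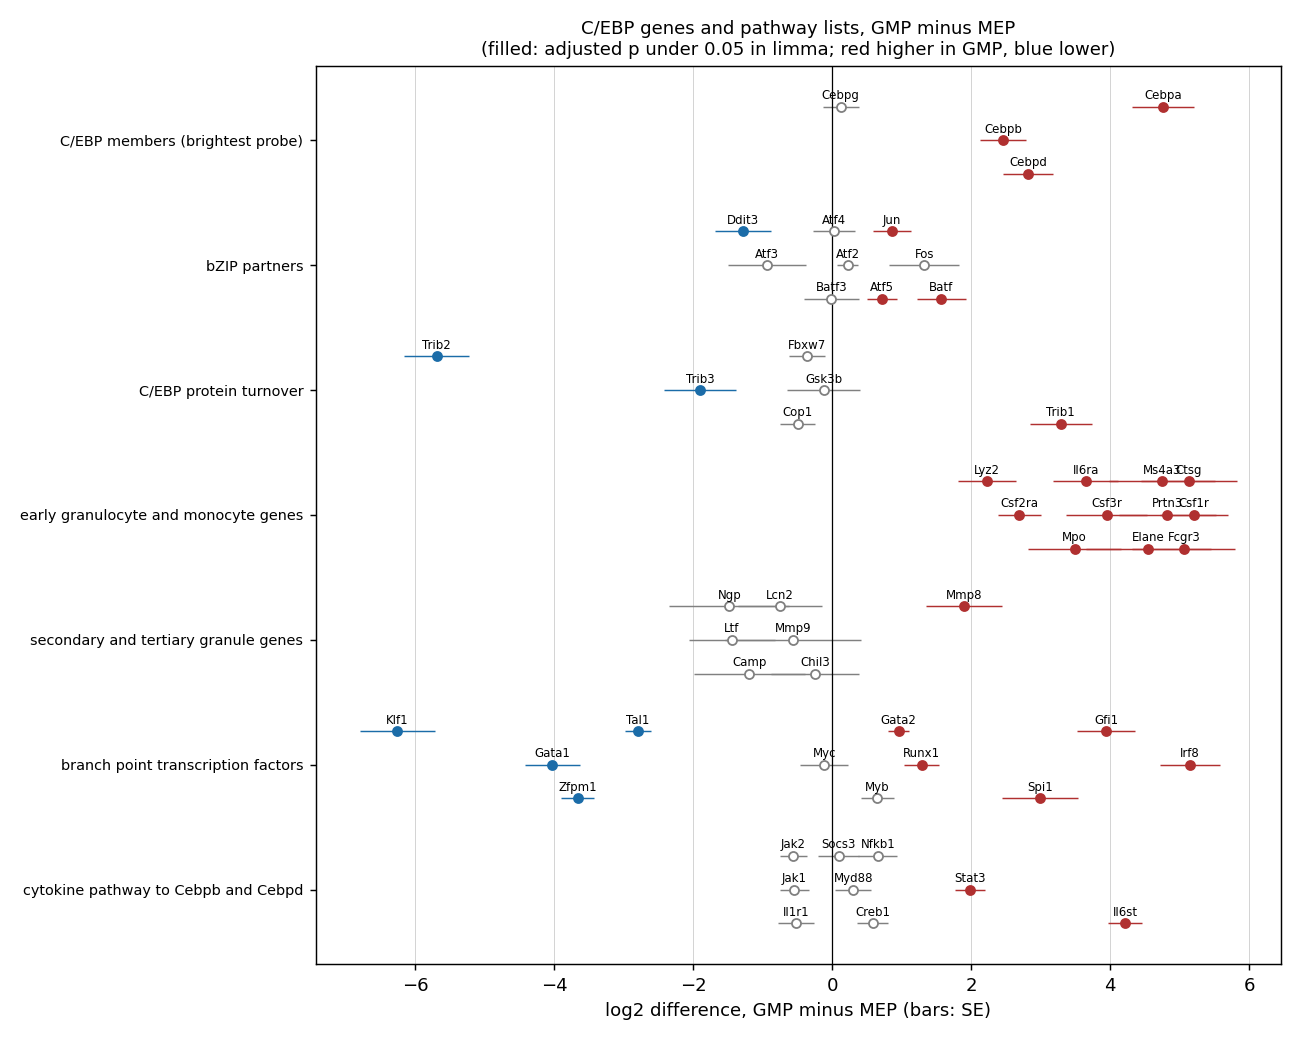
Log2 difference of GMP minus MEP (x axis) for the 4 genes with a probe and for the genes of 6 lists (rows on the y axis), 1 probe per gene; bars are SE and filled points have an adjusted p under 0.05 in limma. Cebpa, Cebpb, Cebpd and the early granulocyte and monocyte genes, drawn with Fcgr3, have filled points to the right of 0, and 1 of 7 secondary and tertiary granule genes has one.

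Markers of other cell types moved with some of these differences, and their part in them was not tested. Of 6 monocyte and macrophage markers, 5 were higher in GMP than in MEP, and their mean level over genes ran from 9.83 to 10.23 log2 on the GMP arrays and from 6.05 to 6.496 on the MEP arrays. Of 5 mature erythroid markers, 5 were lower in GMP, with mean levels of 5.28 to 6.62 against 10.21 to 11.54. Mature neutrophil markers overlapped (10.10 to 11.82 in GMP and 10.77 to 11.68 in MEP), and 1 of 7, Mmp8, passed. The lists share members: Csf1r is also an early gene, the GMP markers are all among the early genes, and 5 of the 7 neutrophil markers (Ltf, Camp, Ngp, Lcn2 and Mmp8) are also secondary or tertiary granule genes, so that count largely repeats theirs. Gata1, Klf1 and Zfpm1 are both MEP markers and branch point factors. B cell markers (1 of 5 higher and 1 lower in GMP) ran from 4.57 to 5.56 over both populations, and of 5 T cell markers none passed in limma (1 at an unadjusted p under 0.05). Pax5, Ms4a1 and Cd8a were not well above background on any GMP or MEP array.

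The genes whose brightest probe ran most like that of each member over the 17 arrays were found among 16753 gene names. They describe arrays that share populations and runs. For Cebpa they were Lypla3 (Pearson correlation 0.98), Rin3 (0.97) and Chdh (0.97), each with its highest mean in GMP and its lowest in MEP. For Cebpb they were Gbe1 (0.96), Ccdc126 (0.95) and Phyh (0.95), each high in the HSC subsets and lowest in MEP. For Cebpd they were Tnnt1, Dok3 and Tesk2 (each 0.94), highest in GMP and lowest in MEP. For Cebpg they were Ric8b (0.92), 2610044O15Rik (0.91) and LOC100042074 (0.91), which are lowest in LT-HSC.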

How the data were processed

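Messenger RNA of 17 samples was read on Agilent 4x44k single-color arrays. The authors deposited scanner output with background-corrected intensity per spot (Feature Extraction 9.5.3.1 in run 1, 10.2.1.3 in runs 2 and 3), without scaling across arrays. A second deposited file held quantile-normalized log2 values with column medians of 6.4 to 6.42. Its rows are numbered by the place of the spot in the scanner file: values matched that way had a median correlation of 0.994 over the arrays with the normalized mean intensity, against 0.0566 by spot number. It served as an alternative.

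The log2 of these intensities was quantile normalized, all spots included, in limma 3.58.1 under R 4.3.3, as the study's methods state. The 1639 control spots and spots with an outlier mark (161 probe values, none of a member) were then left out, and spots of a probe were averaged. A model with 1 mean per population gave moderated tests with Benjamini-Hochberg adjustment over 41174 probes. Fits were tested on simulated data. The number of arrays limits the precision. The p-values measure the spread between arrays of a population, each a pool of mice, and in every population but LT-HSC also between scanning runs. The main model leaves out the pairing by replicate number. A scanning run is a group of scan dates, 2 in run 2.

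All member probes were reported. From each list at most 4 genes with the largest difference between GMP and MEP were named, and per member the 3 genes of highest correlation among probes well above background on at least 6 arrays. The members and lists were chosen with earlier results of these data known. Replicate numbers were checked by the correlation of deviations from the population means. Same-numbered arrays correlated at 0.167 to 0.512 for GMP and CMP, 0.13 to 0.417 for GMP and MEP, 0.282 to 0.511 for CMP and MEP and 0.286 to 0.668 for ST-HSC and MPP, each over 3 pairs, so the numbers pair those arrays, most of which share a slide. For all other pairs of populations the range was -0.127 to 0.111, and the number was not taken to pair them. Alternatives were 75th percentile scaling, a filter on dim probes, normexp (offset 50) for the background, the second deposited file, blocks for run, slide or replicate number, other choices of probe, subsets of arrays, and each array left out.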

Additional observations from a re-analysis of the deposited data

How the results depend on the processing

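The 5 member probes called between GMP and MEP were 5 under each alternative run. No member probe difference that passed changed direction in these refits, while within run 2 the brighter Cebpa probe gave 0.30 for the HSC subsets minus the myeloid populations. Over 528 refits of single probes other than leaving out an array, 488 stayed on their side of the threshold, 12 lost it and 28 passed anew, and over 952 that left out an array the counts were 924, 20 and 8. For the HSC subsets against the myeloid populations, member calls went from 5 to 2 with the run block (17006 to 5970 over all probes). With the replicate block, whose numbers do not pair these groups, they went to 3 (16049 over all probes). For LT-HSC against ST-HSC they went from 0 to 1 with normexp, the authors' table or the run block, and to 2, both of Cebpg, with the replicate block. Nothing is drawn from that fit, since the numbers do not pair these populations and the pooled LT-HSC array falls in a block of its own. For ST-HSC against MPP, which the numbers pair, calls went from 0 to 1 with the replicate block. For GMP against CMP they went from 3 to 5 with normexp, the authors' table, the run block or slide as a random block (consensus correlation 0.361). For MEP against CMP they went from 3 to 5 without dim probes, with the run block or with the replicate block. Leaving out 1 array gave 0 to 1 calls for LT-HSC against ST-HSC (1 without ST-HSC replicate 3 or the unnumbered MEP array), 1 to 4 for CMP against MPP, 0 to 5 for GMP against CMP and 2 to 5 for MEP against CMP (5 without ST-HSC replicate 3). The cause of these changes was not tested. Of the comparisons that the numbers pair, the replicate block changed no call between GMP and MEP or GMP and CMP. It changed none between CMP and MPP, which the numbers do not pair. Scaling to the 75th percentile moved the median of all probes to -0.43 for GMP minus MEP and 0.49 for MEP minus CMP. It also moved the share of higher calls over all probes from 43.97% to 64.1% for the HSC subsets, from 74.5% to 87.7% for LT-HSC against ST-HSC and from 55.6% to 40.9% for CMP against MPP. For CMP against MPP run 2 alone held both populations, with 1 array each, so no test within a run was possible. Signal near background limits Cebpg probe A_51_P521216 and the low end of Cebpa.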
